A study of Mus musculus with 20 samples.

Results

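High-mitochondrial cells are the cultured macrophages in which the genes of the mitochondrial genome (names starting with mt-) held 15% or more of all corrected transcript counts. Selected on this mitochondrial share alone, they were 835 of 20798 cells, or 4.01%, and 67.1% of them came from B-MF cultures. The study generated B-MF by culturing sorted BM B cells of C57BL/CJ or BALB/CJ mice for a week in medium conditioned by 4T1.2 cells, a mouse breast cancer line, and Mo-MF by culturing monocytes in the same conditioned medium. The mice were young females, and the labels name no altered gene for either culture. Which strain gave which library is not stated. Each cell type was represented by 2 scRNA-seq libraries, and the sources used here do not say whether these came from separate mice or wells. The p-values below thus measure the spread between libraries only, and those of limma also borrow variance across genes. B-MF and Mo-MF started from different cells, so the cell of origin and the culture cannot be told apart.

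Mitochondria keep a small circular genome that encodes subunits of the respiratory chain and of ATP synthase, and its transcripts stay inside the organelle. Most other mRNA lies in the cytosol, while some long RNAs, such as Malat1 and Neat1, remain in the nucleus. In droplet scRNA-seq a high share of mitochondrial transcripts is commonly used as a mark of stressed or damaged cells, although cells rich in mitochondria can also have one. The questions asked here were how these cells were spread over the libraries, what their nuclear-encoded RNA looked like, and whether the mt- genes still differed between B-MF and Mo-MF once these cells were removed.

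The share of high-mitochondrial cells was 6.42% in B-MF library 1 (336 of 5237 cells, 95% exact binomial interval 5.77 to 7.11), 4.21% in B-MF library 2 (224 of 5326, 3.68 to 4.78), 2.91% in Mo-MF library 1 (141 of 4846, 2.45 to 3.42) and 2.49% in Mo-MF library 2 (134 of 5389, 2.09 to 2.94). Both B-MF libraries were above both Mo-MF libraries. B-MF averaged 5.31% ± 1.56 and Mo-MF 2.70% ± 0.30 (SD, n = 2 libraries each), a difference of 2.61 percentage points. The exact two-sided permutation test gave p = 0.333, which is the smallest value that 2 libraries against 2 allow. The intervals cover counting error only, and those of the B-MF libraries did not overlap each other. Without B-MF library 1 the difference was 1.51 percentage points, and without B-MF library 2 it was 3.72. With thresholds of 10%, 20% and 25% the order of the cultures was the same, with B-MF means of 12.4%, 3.39% and 2.01% against Mo-MF means of 5.99%, 1.43% and 0.781%.

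**Figure D1:**
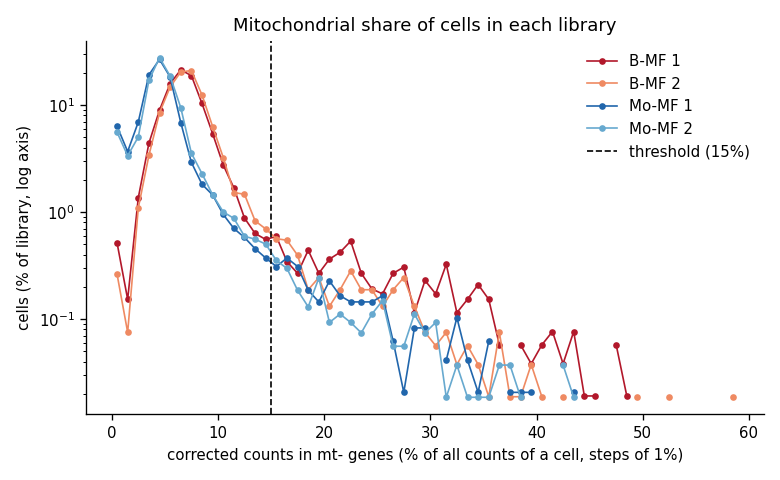
Percentage of each library's cells (log axis) in steps of 1% of the mitochondrial share, with 1 line per library and a dashed line at the 15% threshold. The bulk of B-MF cells lay to the right of the bulk of Mo-MF cells, and the tail ran through the threshold without a gap.

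The threshold cut through a continuous tail. The median mitochondrial share of the other cells was 6.73% and 6.98% for B-MF, versus 4.48% and 4.64% for Mo-MF, so the threshold lay closer to the typical B-MF cell. Among the members the median share was 22.9%, 21.2%, 20.8% and 20.4% in the same order of libraries, the highest share was 58.1%, and 2 cells reached 50%. Cells just below the threshold (shares of 14 to 15%) and just above it (15 to 16%) were alike. Their median Malat1 level, in corrected counts per 10000 nuclear-encoded counts, was 314 and 361 in B-MF library 1, 252 and 303 in B-MF library 2, 332 and 347 in Mo-MF library 1, and 356 and 319 in Mo-MF library 2.

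The members made up few cells but much of the mitochondrial RNA. Of all mt- counts they held 18.7% and 11.6% for B-MF, versus 11.8% and 9.99% for Mo-MF. They also held 20.7%, 11.9%, 10.9% and 8.58% of all Malat1 counts, against 4.79%, 3.31%, 2.21% and 1.89% of all nuclear-encoded counts. The transcript of mt-Co3, a subunit of cytochrome c oxidase, averaged 912, 837, 743 and 776 corrected counts per member and 277, 282, 173 and 181 per other cell. These values follow from the rule that chose the members and are given as a description.

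Defining markers of macrophages were present in the members. Csf1r (the receptor for M-CSF), Cd68, Lyz2 (lysozyme), Ctss and Mrc1 were detected in every member of all 4 libraries, and Adgre1, which encodes F4/80, in 99.7%, 99.6%, 100% and 100% of them. The other cells had them at nearly the same shares, from 92.6% for Mrc1 in Mo-MF library 1 to 100% for Lyz2, and free RNA was not estimated, so detection alone does not tell members from other cells. Markers of other cell types varied by type. Cd3d, Cd3g and Nkg7 of T and NK cells were at 0 in the members of all libraries, and the summed level of 4 erythroid genes did not exceed 0.011 per 10000 nuclear-encoded counts. Transcripts of the B-cell list were uneven. In B-MF library 2 Cd79a was detected in 0.893% of members and 0.0784% of other cells and Ebf1 in 1.34% and 0.314%. That library had 224 members, so these shares rest on few cells. In B-MF library 1 both were at 0% in members, against 0.265% and 0.531% of other cells. The share with Cd79b was lower in members than in other cells of every library. It was 1.19%, 2.23%, 0.709% and 1.49% of members, against 3.90%, 2.70%, 8.20% and 8.26% of other cells. The summed level of 12 B-cell markers ranged from 0.906 to 2.27 per 10000 in members and from 0.828 to 2.69 in other cells. Ighm, the immunoglobulin heavy chain, was detected in 5.36%, 6.70%, 0% and 0.746% of members and in 19.9%, 17.4%, 1.91% and 1.52% of other cells. Its level did not follow in B-MF library 2, at 0.365 per 10000 in members and 0.193 in other cells. Blnk, an adaptor of B-cell receptor signaling, was at 0.959, 0.987, 0.868 and 0.802 per 10000 in members and at 0.843, 0.812, 0.604 and 0.615 in other cells (log2 difference 0.30 ± 0.054, limma adjusted p = 0.000128, and -0.056 per cell). Of these 12, Vpreb1 was at 0 in the members of all libraries. The summed levels of dendritic, mast cell and basophil, and fibroblast and endothelial markers were at most 0.305, 0.977 and 0.207 per 10000 in members.

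Neutrophil transcripts set the cultures apart. The summed level of 12 markers was 0.863 and 0.876 per 10000 for B-MF members, versus 23.5 and 10.7 for Mo-MF members. Other B-MF cells had 0.599 and 0.405, and other Mo-MF cells 94.2 and 74.4. Cells in which S100a8 and S100a9, the calprotectin subunits abundant in neutrophils, held 1% or more of nuclear-encoded counts made up 2.13% and 2.24% of Mo-MF members, against 8.86% and 7.38% of other Mo-MF cells. In B-MF they were 0% of the members and at most 0.0612% of the other cells. In both Mo-MF libraries the neutrophil sum was thus lower in the members than in the other cells. This was not particular to the members. Cells rich in S100a8 and S100a9 were 40.8% and 40.7% of Mo-MF cells with mitochondrial shares under 2%. They were 2.45% and 2.35% of those at 8 to 11%, and 5.88% and 2.21% of those at 11 to 15%.

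The members had fewer detected genes than the other cells in every library. The median number of genes per cell was 2899 against 3938 in B-MF library 1, 2839 against 3442 in B-MF library 2, 2854 against 3891 in Mo-MF library 1 and 2831 against 3796 in Mo-MF library 2. The mean difference of these medians was -911 genes, in the same direction in 4 of 4 libraries (exact sign-flip permutation test over libraries on both sides, p = 0.125, which is the lowest value possible with 4 libraries). Low numbers were not particular to the members. Other cells with mitochondrial shares of 11 to 15% had medians of 3090, 2929, 2730.5 and 2770 genes. Those with shares under 2% had 2767, 2767.5, 2721 and 2748. The corrected counts do not keep the original depth of a cell. Their total per cell was set nearly level by the authors' correction, with library medians between 17509 and 17733 in members and between 18376 and 19526 in other cells, so the depth of the members before correction is unknown here. The part of fewer detected genes in the results below was not tested beyond a weighted comparison, given where it matters.

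Malat1, a long RNA retained in nuclear speckles (chr19:5795690-5802672, minus strand, GRCm38), rose strongly in the members. Its median level per cell was 878, 498, 645 and 562 per 10000 nuclear-encoded counts in the members of B-MF 1, B-MF 2, Mo-MF 1 and Mo-MF 2, and 147, 146, 129 and 131 in the other cells. The member median was higher in every library, by the widest margin in B-MF 1. Of the members, 71.4%, 65.6%, 77.3% and 67.2% lay above the 95th percentile of the other cells of their own library. In the summed counts its level was higher by 2.27 ± 0.13 on the log2 scale (SE, n = 4 libraries, limma adjusted p = 4.25e-10), the largest rise of the 7004 nuclear-encoded genes tested. This rank held only under some settings. With a 10% threshold the difference was 1.67 for Malat1 and 2.30 for Gm42418, and without Mo-MF library 1 it was 2.23 for Malat1 and 2.29 for Gm26917. With other cells weighted by detected genes it was 1.86 for Malat1 and 1.95 for Gm26917. The largest there was 2.05, in another of the nuclear-retained RNAs listed below. Within the members Malat1 still increased with the mitochondrial share, with Spearman correlations across cells of 0.37, 0.47, 0.51 and 0.34, which are descriptions over cells of 1 library each.

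**Figure D2:**
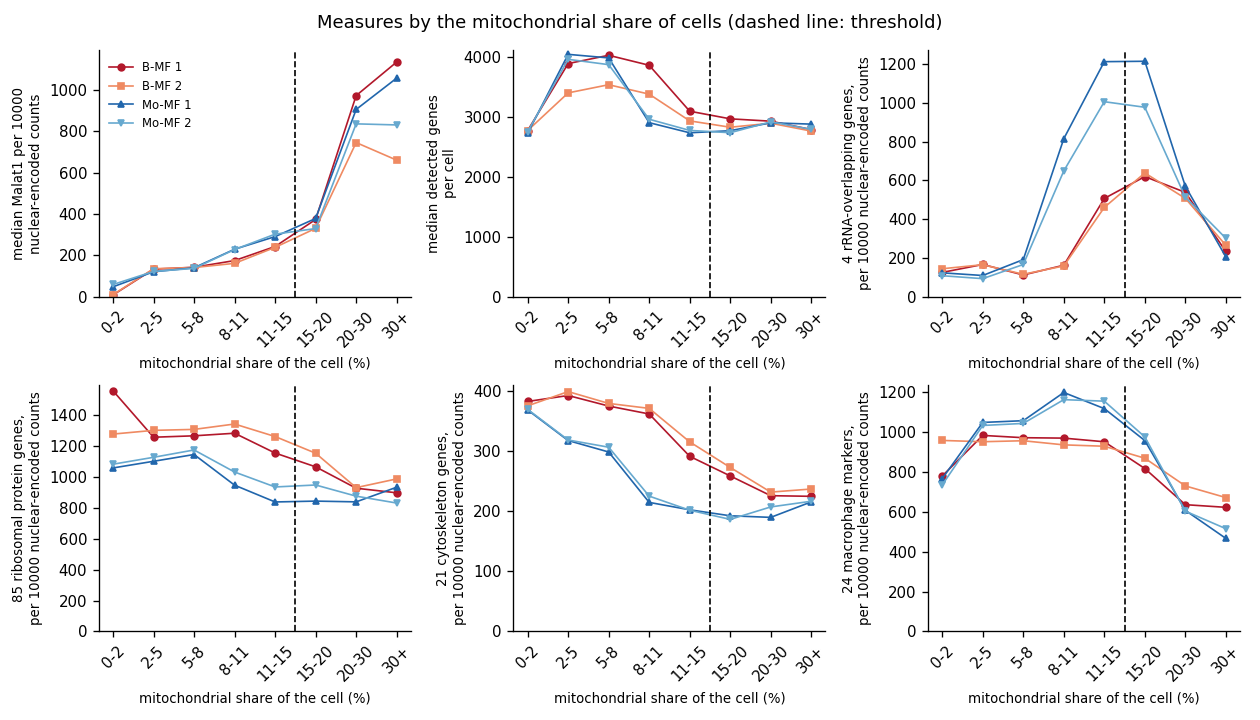
Median Malat1, detected genes and the summed level of 4 gene lists in bins of the mitochondrial share, with 1 line per library and the dashed line at the threshold. Malat1 rose steeply beyond 20%, rRNA-overlapping genes peaked around the threshold and declined above it, and ribosomal protein, cytoskeleton and macrophage genes were lower in the high bins.

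The change in Malat1 was steepest between the bins of 15 to 20% and 20 to 30%. Median Malat1 was 243, 239, 291 and 302 per 10000 in cells with shares of 11 to 15%, and 373, 330, 378 and 329 in members between 15 and 20%. In members between 20 and 30% it reached 973, 745, 906 and 836. At 30% and above it was 1135, 660, 1057 and 831. Ribosomal RNA overlapping genes took another course, with a summed level of 620, 639, 1216 and 978 at 15 to 20% and of 233, 265, 205 and 301 at 30% and above, where the Mo-MF libraries had only 17 and 19 cells. The summed level of macrophage markers was 817, 868, 957 and 975 at 15 to 20% and 635, 729, 607 and 603 at 20 to 30%. Detected genes per member had medians of 2963, 2823, 2765.5 and 2732 at 15 to 20% of 2924, 2890, 2897 and 2913 at 20 to 30%, and of 2784.5, 2759, 2875 and 2787 at 30% and above. Among members their Spearman correlation with the share was -0.33, -0.08, 0.20 and 0.14.

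Other nuclear RNAs rose with it. Xist, the RNA that coats the inactive X chromosome (chrX:103460366-103483254, minus strand), was at 35.1, 26.2, 28.8 and 27.0 per 10000 in members and at 9.28, 10.2, 6.86 and 7.27 in other cells, a log2 difference of 1.80 ± 0.062 (SE, n = 4, adjusted p = 3.19e-12). Every member library was above every library of other cells. Neat1, the scaffold of nuclear paraspeckles (chr19:5824708-5845478, minus strand), was at 18.4, 15.3, 19.5 and 17.2 against 5.50, 5.95, 4.74 and 4.55, a log2 difference of 1.74 ± 0.048. Kcnq1ot1, an imprinted antisense RNA of chromosome 7, was higher by 1.53 and Tsix, which overlaps Xist on the other strand, by 1.95. Whether counting used the strand is not given in the sources used here, so reads of Xist and Tsix cannot be told apart. Of 14 nuclear-retained RNAs listed, 10 were in the table and 6 passed the filter of 0.1 counts per 10000. These 6 include Malat1 itself and both Xist and Tsix. Of them, 5 rose and none fell, where 30.8% of all 7004 genes tested rose, and their median log2 difference was 1.77 against -0.05 over all genes. The remaining 1, Airn, had a log2 difference of 0.19.

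Genes that overlap ribosomal RNA sequence were also higher. Gm42418 (chr17:39846958-39848788, plus strand) was at 469, 525, 821 and 704 per 10000 in members and at 131, 134, 171 and 153 in other cells (log2 difference 2.07 ± 0.12, SE, n = 4, adjusted p = 3.56e-10). Its neighbor Gm26917 rose by 2.02, Lars2 by 1.19 and AY036118 by 0.96, so that 4 of 4 rose, beside 30.8% of all genes. The difference of Gm42418 was 0.93 with other cells weighted by detected genes and also 0.93 with a 25% threshold. The rise was not particular to the members. The summed level of the 4 genes was 498, 547, 846 and 731 in members. In other cells with mitochondrial shares of 11 to 15% it was 507, 461, 1214 and 1007, above the members in both Mo-MF libraries. Counts of these genes may hold ribosomal RNA reads and their levels are uncertain.

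Malat1 and Gm42418 were high in partly different members. Among members their Spearman correlation was -0.43, -0.15, -0.62 and -0.51 in the 4 libraries, while among other cells it was 0.31, 0.32, 0.29 and 0.33. Both levels share the nuclear-encoded count as denominator, and no test was made. Members above the 95th percentile of other cells for Malat1 alone were 60.4%, 49.1%, 59.6% and 51.5%, those above it for Gm42418 alone were 14.3%, 16.1%, 18.4% and 18.7%, and those above it for both were 11.01%, 16.5%, 17.7% and 15.7%. The members with Malat1 alone had median mitochondrial shares of 26.7%, 24.5%, 23.5% and 23.3%. The members with Gm42418 alone lay nearer the threshold, at 19.7%, 17.0%, 17.4% and 17.0%. Members above it for neither gene were 14.3%, 18.3%, 4.26% and 14.2%.

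Over all nuclear-encoded genes, the members differed widely from the other cells of their library. Of 7004 genes tested on log2(level + 0.1) with the library as a block, 2158 were higher (30.8%) and 2643 lower (37.7%), or 68.5% in either direction (limma, adjusted p under 0.05). In 4860 genes, or 69.4%, all 4 libraries had the same sign. The balance of directions depended on the scale: higher genes were 44.9% of the calls. Per cell instead of per 10000 nuclear-encoded counts, 834 of 8150 genes were higher (10.2%) and 5509 lower (67.6%), with the median of all genes at -0.41 and 13.1% of calls higher. Total counts were nearly level and the rule gives 15% or more of them to mt- genes, so this scale lowers nuclear-encoded genes by design. Mean nuclear-encoded counts were 13132, 13563, 13725 and 13677 per member, against 17876, 17418, 18174 and 18077 per other cell. Calls per cell here and below are thus no independent alternative. When the other cells were weighted to the same spread of detected genes as the members, 2710 of 6441 were higher (42.1%) and 1323 lower (20.5%), with the median at 0.12 and 67.2% of calls higher. Of the 4801 genes called in the original fit, 3224 were also called in the weighted fit, and 53 of these with the opposite sign. List counts below are given on another scale where it turned their balance, beside the share of all genes on that scale.

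The largest rises after Malat1, the rRNA-overlapping genes and the other nuclear RNAs were in Ogt, Luc7l2 and the unnamed gene AC149090.1. Ogt, which adds N-acetylglucosamine to nuclear and cytosolic proteins, was at 2.07, 1.74, 2.31 and 2.06 per 10000 in members and at 0.597, 0.629, 0.699 and 0.684 in other cells (log2 difference 1.51 ± 0.053, SE, n = 4). Luc7l2, a splicing factor, was at 4.68, 3.59, 4.17 and 3.50 against 1.55, 1.59, 1.22 and 1.26 (1.44 ± 0.056). In both genes every member library was above every library of other cells. Among the largest falls that went the same way in 4 of 4 libraries were S100a4, a calcium-binding protein (-1.70 ± 0.14), Bex1 (-1.64 ± 0.071), Selenoh, a selenoprotein (-1.48 ± 0.10), Fabp3, a fatty acid binding protein (-1.45 ± 0.11, listed at 0 in Mo-MF 2 members), the histone Hist1h1b (-1.44 ± 0.11) and Ifitm1, an interferon-induced membrane protein (-1.38 ± 0.047). Member levels lay near or under the pseudocount of 0.1 for Fabp3, Hist1h1b and Selenoh. So did the B-MF levels of Bex1 and the Mo-MF 1 level of S100a4 (0.0258). In the lists below this holds, among others, for Tfam, Fundc1, Bnip3, Nupr1, Dnajb1, Bag3, Bid, Prdx3, Lsp1, Ube2c and Birc5. The log2 differences of all these genes depend on the pseudocount. All but Bex1 and S100a4 passed the filter mainly through the other cells. Counts of lower genes in the lists include them. In the weighted fit the call of Bag3 was lost (-0.20, limma adjusted p = 0.132).

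Genes with longer transcripts were more often among the higher ones. The longest annotated transcript had a median of 4459 nt in the genes called higher, 2442 nt in those called lower and 3448 nt over the 6944 tested genes found in the GENCODE annotation. In the group of genes with the shortest transcripts (median 1337 nt, 1389 genes) 11.95% were higher and 65.9% lower, and in the group with the longest (median 7058 nt, 1389 genes) 54.2% were higher and 8.42% lower. Genes with a mean level of at least 1 were divided anew by length, and there 5.63% were higher and 69.9% lower in the shortest group (median 928.5 nt, 302 genes), and 91.4% higher and 3.32% lower in the longest (median 6321 nt, 301 genes). Across genes the Spearman correlation of the log2 difference with transcript length was 0.47 (0.42 to 0.47 in single libraries, 0.55 in the weighted fit). It was 0.34 with the span of the gene and 0.41 with its mean level, and in the weighted fit 0.44 and 0.15. Genes with an annotated retained-intron transcript were 72.7% of those called higher and 58.8% of those called lower, against 66.1% of all. Genes are not independent replicates, and no test was made of these descriptions.

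**Figure D3:**
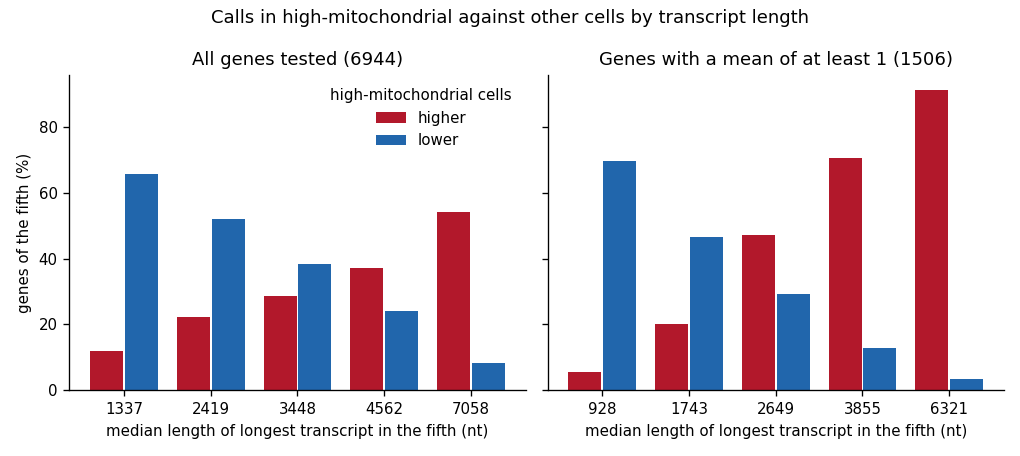
Percentage of genes called higher or lower in high-mitochondrial cells, in 5 groups of about equal size ordered by the length of the longest annotated transcript, for all genes tested and for genes with a mean level of at least 1. The share of genes called higher climbed from 11.95% to 54.2% over all genes and from 5.63% to 91.4% among the more abundant ones.

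Ribosomal protein transcripts, which are short and abundant, were lower in the members. Of 83 cytosolic ribosomal protein genes tested, 75 fell and 2 rose, beside 37.7% and 30.8% of all genes, with a median log2 difference of -0.33. In the weighted fit 78 fell, beside 20.5% of all genes. Rps27a, which encodes a fusion of ubiquitin and a ribosomal protein, was at 19.2, 21.2, 15.1 and 17.6 per 10000 in members and at 29.9, 30.7, 25.9 and 26.8 in other cells (-0.64 ± 0.041, SE, n = 4, adjusted p = 1.53e-09). The members of each library were below its other cells. Rpl23 fell by 0.56 and Rpl17 and Rps20 by 0.54 each.

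**Figure D4:**
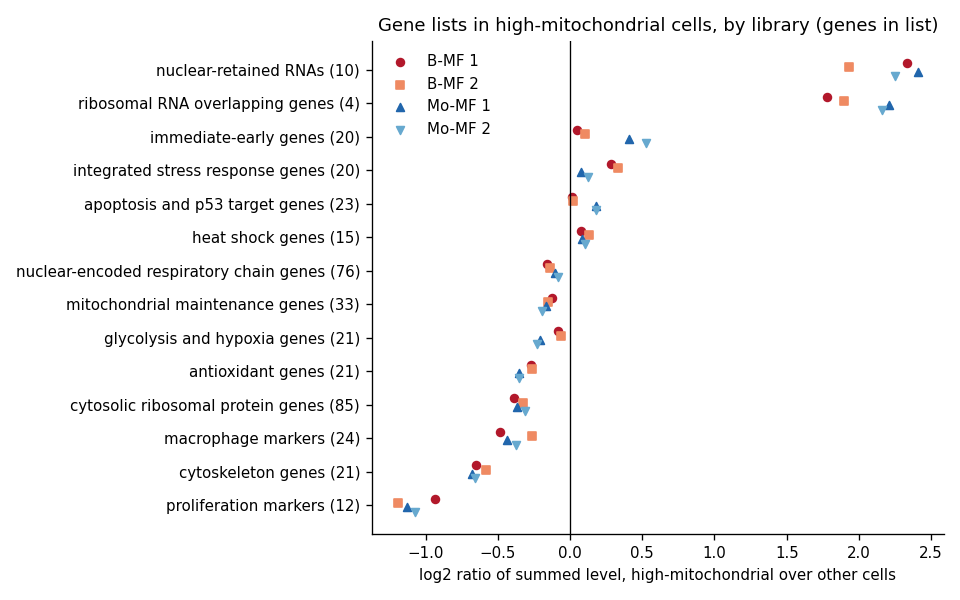
Log2 ratio of the summed level of each gene list in high-mitochondrial over other cells of the same library, with 1 point per library and the number of listed genes in the table in brackets. The sums of nuclear-retained RNAs (mostly Malat1) and of rRNA-overlapping genes (mostly Gm42418) stood far to the right in all 4 libraries. Proliferation, cytoskeleton, macrophage and ribosomal protein genes stood to the left.

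On the scale of nuclear-encoded counts, nuclear-encoded partners of the mitochondrial genes moved in both directions. Of 76 nuclear-encoded subunits of the respiratory chain and ATP synthase, 10 rose and 39 fell, beside 30.8% and 37.7% of all genes, with a median log2 difference of -0.10, close to the -0.05 of all genes. Per cell, 0 of the 76 were higher and 75 lower with a median of -0.49, where 10.2% of all genes were higher and 67.6% lower. Sdha, the flavoprotein of complex II, was among the 10 that rose. It was at 1.26, 1.24, 1.03 and 1.17 per 10000 in members and at 0.822, 0.842, 0.828 and 0.837 in other cells (0.45 ± 0.049, and 0.086 per cell, not called at limma adjusted p = 0.145). Cox5a, a subunit of complex IV, fell by 0.32, as did Ndufb8 of complex I. Of 22 tested genes that maintain mitochondria, 12 fell and 3 rose, beside 37.7% and 30.8% of all genes. Tfam, which packages and transcribes mitochondrial DNA, was at 0.0612, 0.0461, 0.0413 and 0.0218 in members and at 0.168, 0.162, 0.152 and 0.153 in other cells (-0.87 ± 0.10). Its member levels were under the pseudocount of 0.1, and it passed the filter through the other cells. Pink1, a kinase that marks damaged mitochondria, fell by 0.87, and Fundc1 and Bnip3, mitophagy receptors, by 0.76 and 0.74. In the weighted fit 8 of 21 were higher and 4 lower with a median of 0.08, close to the 42.1% and 20.5% and the median of 0.12 of all genes there.

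Stress genes moved in both directions. The integrated stress response lowers translation and acts in part through Atf4. Of its 7 tested genes, 5 rose and 2 fell, beside 30.8% and 37.7% of all genes. Atf4 itself was at 1.30, 1.22, 1.26 and 1.44 per 10000 in members and at 0.669, 0.653, 0.802 and 0.804 in other cells (0.76 ± 0.050, SE, n = 4, adjusted p = 2.14e-09), so every member library was above every library of other cells. Slc3a2, an amino acid transporter subunit, rose by 0.37 (-0.020 per cell), while Nupr1 fell by 0.68 and Ppp1r15a, which restores translation, by 0.40, a call lost without B-MF library 1 (adjusted p = 0.0831). Per cell, 8 of 11 genes of this list were lower and 1 was higher with a median of -0.43, where 67.6% of all genes were lower and their median was -0.41. Of 11 heat shock genes, 6 rose and 4 fell, the latter near the 37.7% of all genes, of which 30.8% rose. The inducible co-chaperones Dnajb1 and Bag3 fell by 0.82 and 0.67. Per cell, 10 of the 11 were lower and none higher, with a median of -0.31 against -0.41 over all genes, of which 67.6% were lower.

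Of 18 immediate-early genes, which are induced quickly by stimulation or handling, 15 rose and 2 fell, beside 30.8% and 37.7% of all genes, with a median of 0.26 against -0.05. In the weighted fit 5 rose and 7 fell with a median of -0.07, where 42.1% of all genes rose, 20.5% fell and the median was 0.12. Per cell 3 of 19 rose and 9 fell with a median of -0.10, where 10.2% of all genes rose, 67.6% fell and the median was -0.41. Fosb, a subunit of the AP-1 factor, was at 1.84, 1.37, 0.274 and 0.338 per 10000 in members and at 0.842, 0.772, 0.105 and 0.0966 in other cells (0.96 ± 0.079), so it was higher in members of each library while B-MF stayed above Mo-MF. Klf6 rose by 0.63 and Fosl2 by 0.71. Egr1 rose by 0.43 over the 4 libraries, by 0.12 in B-MF and 0.74 in Mo-MF (interaction adjusted p = 0.00397), but in the weighted fit it was lower, by -0.25. In the difference between the cultures, below, 7 of these 18 genes had a lower value in B-MF than in Mo-MF and none a higher one, beside 1.21% and 1.46% of all genes. Some of the 18, such as Nr4a1 and Egr3, were under the pseudocount of 0.1 in both classes of Mo-MF. They passed the filter through B-MF, so no difference between the cultures is drawn from this count.

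Of 22 genes of apoptosis and the p53 response, 9 rose and 8 fell, beside 30.8% and 37.7% of all genes. Per cell 4 rose and 14 fell, beside 10.2% and 67.6%. Bcl2l11, which encodes the pro-apoptotic protein BIM, was at 1.06, 0.747, 1.23 and 1.11 per 10000 in members and at 0.498, 0.473, 0.805 and 0.778 in other cells (0.64 ± 0.064). Apaf1, the core of the apoptosome, rose by 0.57, and Bid, another pro-apoptotic member, fell by 0.69. The anti-apoptotic gene Bcl2 was at 0.168, 0.138, 0.160 and 0.289 in members and at 0.121, 0.111, 0.0729 and 0.0742 in other cells. The latter levels were near or under the pseudocount of 0.1, and Bcl2 passed the filter mainly through the members. Only its levels are therefore given, though the 9 genes that rose include it. Of 20 antioxidant genes, 12 fell and 5 rose, the latter near the 30.8% of all genes, of which 37.7% fell. Prdx3, the mitochondrial peroxiredoxin, was at 0.179, 0.0987, 0.0878 and 0.0818 against 0.368, 0.348, 0.289 and 0.278 (-1.01 ± 0.11), and Prdx1 and Gpx1 fell by 0.60 and 0.57. Of 18 glycolysis and hypoxia genes, 10 fell and 1 rose, beside the same shares of all genes, and this was Vegfa, an angiogenic factor, by 0.58.

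Most cytoskeleton genes fell. Of 21 tested, 17 fell and 2 rose, beside 37.7% and 30.8% of all genes. Tmsb4x, which encodes thymosin beta 4, an actin-sequestering peptide, was at 75.1, 81.5, 46.2 and 47.9 per 10000 in members and at 167, 167, 119 and 121 in other cells (-1.22 ± 0.064, SE, n = 4, adjusted p = 1.84e-10). The members lay below the other cells in all 4 libraries. Tuba1a, an alpha tubulin, fell by 1.09, Lsp1, an actin-binding protein of leukocytes, by 0.97 and Actg1 by 0.57.

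Macrophage genes moved unevenly. Of 24 tested, 13 fell and 7 rose, beside 37.7% and 30.8% of all genes, so the share that rose was near the background. Their median was -0.20. Lyz2 was at 140, 177, 86.3 and 91.3 per 10000 in members and at 303, 289, 202 and 197 in other cells (-1.04 ± 0.094, adjusted p = 9.01e-08). Lgals3, a secreted lectin, fell by 0.84 and Ctss, a lysosomal protease, by 0.65. The mannose receptor Mrc1 went the other way, at 11.8, 10.7, 4.58 and 4.71 against 6.17, 6.36, 3.21 and 3.29 (0.67 ± 0.035). Of 8 proliferation markers tested, 7 fell, beside 37.7% of all genes. Ube2c, which drives exit from mitosis, was at 0.0499, 0.0329, 0.0155 and 0.0600 against 0.349, 0.304, 0.292 and 0.295 (-1.56 ± 0.11), and Birc5 fell by 1.52. Both passed the filter mainly through the other cells. Only 3 of the proliferation markers passed the filter in the weighted fit, and there all 3 were higher, as were 42.1% of all genes. Mki67 was detected in 6.25%, 4.46%, 4.96% and 5.22% of members, against 16.4% and 15.7% of other B-MF cells and at most 11.2% of other Mo-MF cells, which had more detected genes.

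The cultures were also compared for the size of these changes. The difference between members and other cells was itself different between B-MF and Mo-MF in 187 of 7004 genes, or 2.67% (limma, interaction of cell class and culture), 102 higher in B-MF (1.46%) and 85 lower (1.21%), and in 968 genes at an unadjusted p under 0.05. Without a filter on low levels no gene was called. The granule genes Ngp, Camp, Ltf, Lcn2 and Pglyrp1 were at most 0.0099 per 10000 in either class of B-MF and lower in the members of Mo-MF than in its other cells. They passed the filter through Mo-MF alone, so no difference between the cultures is drawn from them. Among genes above the pseudocount in both cultures, Slc40a1, the iron exporter ferroportin, was at 2.20 and 2.22 per 10000 in B-MF members and 2.48 and 2.49 in other B-MF cells, and at 1.05 and 1.03 in Mo-MF members and 0.474 and 0.453 in other Mo-MF cells. The members were higher in both Mo-MF libraries and lower in both B-MF libraries, and the B-MF difference was lower than the Mo-MF difference by -1.18 ± 0.084 on the log2 scale (SE, n = 4 libraries, adjusted p = 2.56e-07). Gpx3, a secreted glutathione peroxidase, was at 1.16 and 1.12 against 1.61 and 1.59 in B-MF, and at 0.636 and 0.666 against 0.295 and 0.288 in Mo-MF (-1.40 ± 0.11, adjusted p = 5.28e-07). In contrast, Id3, an inhibitor of E protein transcription factors, was at 0.412 and 0.481 in B-MF members, 1.56 and 1.33 in other B-MF cells, and at most 0.0275 in either class of Mo-MF, which is under the pseudocount of 0.1, so no difference between the cultures is drawn from it.

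Within the high-mitochondrial cells, the number of genes called between B-MF and Mo-MF depended on the settings. It does not measure how alike the cultures were. Of 6417 nuclear-encoded genes tested, 82 were higher in B-MF (1.28%) and 57 higher in Mo-MF (0.888%), together 2.17%, and 1247 had an unadjusted p under 0.05. With thresholds of 10% and 25%, 1945 of 6716 and 0 of 6361 genes were called. These counts were unstable: no gene was called without either B-MF library, 53 without Mo-MF library 1 and 39 without Mo-MF library 2. Id3 was at 0.412 and 0.481 per 10000 in B-MF members and 0.0103 and 0.0273 in Mo-MF members. Nr4a1, a nuclear receptor induced by stimulation, was at 0.728 and 0.704 against 0.0827 and 0.0982. The Mo-MF levels of both genes were under the pseudocount of 0.1 and they passed the filter through B-MF, so only their levels are given. Mrc1 was at 11.8 and 10.7 against 4.58 and 4.71 (log2 difference 1.26 ± 0.11, SE, n = 2 against 2, limma adjusted p = 0.0166), and Pf4, a chemokine, at 48.4 and 43.3 against 14.2 and 11.4 (1.84 ± 0.15). In these genes the cultures did not overlap, as in 52.9% of all genes tested.

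On the Mo-MF side, Mmp14, a membrane metalloprotease, was at 0.0204 and 0.0230 per 10000 in B-MF members and at 0.388 and 0.431 in Mo-MF members. Mgll, a monoglyceride lipase, was at 0.0249 and 0.0230 against 0.641 and 0.873. Both passed the filter through Mo-MF, so only their levels are given. Apoe, an apolipoprotein, was at 118 and 133 against 289 and 296 (-1.22 ± 0.12, limma adjusted p = 0.0184). S100a9 was at 0.00453 and 0 in B-MF members and at 12.7 and 4.87 in Mo-MF members. Malat1 had a log2 difference between the cultures of 0.01 ± 0.17 (adjusted p = 0.981) in members.

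The mt- genes still differed between the cultures after the 835 cells were removed. All 13 were higher in B-MF among the remaining 19963 cells, where 22.2% of 8664 genes were higher (limma, adjusted p between 1.6e-05 and 0.00359). The median log2 difference was 0.55, against 0.59 in all cells, where 22.6% of 8633 genes were higher, and removal lowered the difference of single genes by 0.0091 to 0.040. On the scale of 10000 nuclear-encoded counts the median was 0.59 after removal and 0.64 before. The pooled mitochondrial share of the remaining cells was 6.96% for B-MF against 4.71% for Mo-MF, a difference of 2.25 percentage points, which was 84.8% of the 2.65 found in all cells. The difference of the median share was 97.1% of its former value.

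Per gene, mt-Atp6, a subunit of the proton channel of ATP synthase, averaged 236 and 231 corrected counts per remaining B-MF cell and 138 and 143 per Mo-MF cell (0.73 ± 0.056, SE, n = 2 against 2, adjusted p = 1.6e-05). Transcripts of mt-Co3 averaged 277 and 282 against 173 and 181 (0.66 ± 0.056, adjusted p = 3.32e-05) and those of mt-Cytb, of complex III, 108 and 114 against 71.4 and 76.2 (0.58 ± 0.062, adjusted p = 0.000129). The smallest difference was in mt-Co1, at 228 and 233 against 186 and 191 (0.29 ± 0.055, adjusted p = 0.00359). In each of these the B-MF libraries lay above the Mo-MF libraries, and the cultures did not overlap in 68.2% of all genes. Without Mo-MF library 1, 12 of the 13 were called and mt-Co1 was not (adjusted p = 0.0643). Mo-MF also held the cells rich in S100a8 and S100a9, and with these left out all 13 were called at a median of 0.51.

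**Figure D5:**
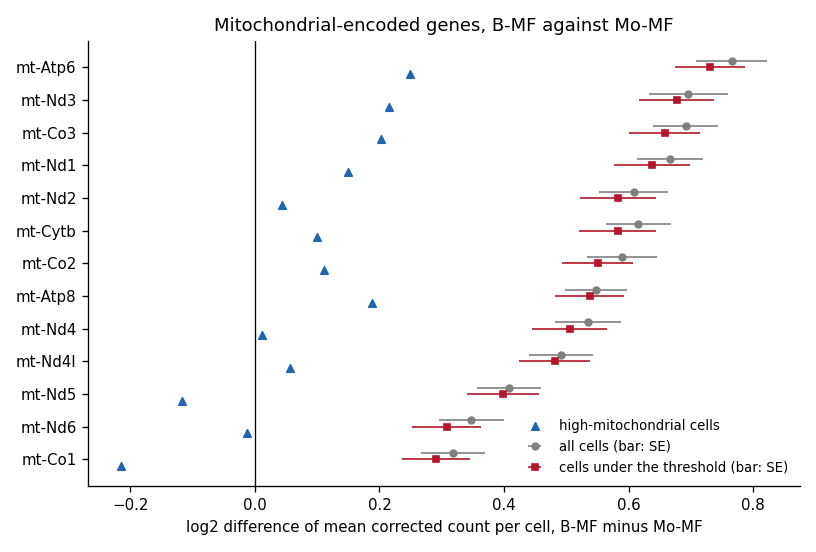
Log2 difference of the mean corrected count per cell between B-MF and Mo-MF for the 13 mitochondrial-encoded genes, in all cells, in cells under the 15% threshold and in high-mitochondrial cells, with SE bars for the first pair. Removal shifted every gene only slightly, and in high-mitochondrial cells the differences lay between -0.22 and 0.25.

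Within the members, where the rule itself sets a floor on the mitochondrial share, the mt- genes differed less between the cultures. The log2 differences ran from -0.22 for mt-Co1 to 0.25 for mt-Atp6 with a median of 0.10, and 10 of 13 were above 0. They are given without a test.

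The makeup of the mitochondrial RNA is given as a description, since the same mt- counts chose the members. As a percentage of all mt- counts, 8 of 13 genes were lower and 3 higher in the members of 4 of 4 libraries. The shares of mt-Nd4l were 0.144%, 0.148%, 0.155% and 0.141% in members and 0.233%, 0.232%, 0.241% and 0.243% in other cells. Those of mt-Nd5 were 0.473%, 0.496%, 0.557% and 0.558% against 0.687%, 0.703%, 0.773% and 0.775%, and the members of each library were below its other cells. The share of mt-Atp6 was higher, at 18.9%, 18.8%, 16.8% and 16.8% against 18.0%, 17.4%, 15.8% and 15.6%. The 5 genes with shares under 1% of mt- counts, mt-Atp8, mt-Nd3, mt-Nd4l, mt-Nd5 and mt-Nd6, were all among those lower. The share of mt-Co1 was 16.8% and 16.5% in B-MF members and 20.7% and 20.4% in Mo-MF members, and 17.4% and 17.6% against 21.3% and 20.9% in other cells.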

How the data were processed

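The 4 scRNA-seq libraries of cultured cells were used. Per the methods and the submitters' notes, the authors counted transcripts with Cell Ranger and STAR on mm10, required at least 1000 detected genes per cell (0 cells were under this here) and corrected the counts with SCTransform. The deposited values hold each corrected count, plus 1, as its natural log. They were converted back, and all were whole within 1e-06. The correction levels the depth of cells, so original depth is unknown and no count model was fitted. Pairs of libraries shared 4 to 14 cell barcodes. Doublets were not called and free RNA was not estimated. The in vivo macrophage and ATAC-seq samples were not used here. The labels and the methods name different 10x kits.

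Cells with 15% or more of counts in mt- genes were members. Counts were summed per library and class, nuclear-encoded genes were scaled to 10000 nuclear-encoded counts, and log2(level + 0.1) was tested, where the mean level reached 0.1, with limma 3.58.1 (R 4.3.3) and Benjamini-Hochberg adjustment over all genes tested. Members and other cells were compared with the library as a block, and cultures with 2 libraries each. In the former the variance was moderated over genes with a trend on level, and very small p-values rest on this. Without the trend the limma adjusted p of Malat1 was 0.000593. Mitochondrial-encoded genes were compared as mean corrected counts per cell. The fits were tested on simulated data. Values per cell were computed with Python 3.11.15, and gene lengths came from GENCODE of GRCm38, the same assembly as mm10, in which 98.69% of 15855 genes were found. The weighted fit gave other cells the members' distribution over bins of 500 detected genes.

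Named genes were the 13 mt- genes and Malat1, up to 4 members of each list with the largest difference, the 10 largest called in each direction that went the same way in all 4 libraries (between cultures, without overlap), and the 5 largest of each direction for the difference between cultures. Not every gene that the rule gives is printed, and some are not reported here. The members, lists and rules were chosen with earlier results of these data known. Alternatives were other thresholds, pseudocounts, filters and scales, each library left out, cells rich in S100a8 and S100a9 left out (1% or more of nuclear-encoded counts), and a replicate block. The mitochondrial difference in all cells per 10000 nuclear-encoded counts was added after seeing the data.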

Additional observations from a re-analysis of the deposited data

Results flagged for a closer look

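Of the 187 genes past the threshold for limma's interaction term of cell class and culture, the 5 largest in each direction are given here as the change in B-MF minus that in Mo-MF on the log2 scale. The granule genes of neutrophils gave 4.83 for Ngp, 3.68 for Camp, 3.54 for Ltf, 3.11 for Lcn2 and 2.46 for Pglyrp1. In B-MF these genes were at or near 0 in both classes, so these values restate the fall in Mo-MF, depend on the pseudocount of 0.1 and show no difference between the cultures. Ngp was at 0.0620 and 0.0109 per 10000 in Mo-MF members and at 4.63 and 2.96 in other Mo-MF cells. The lower values were -1.54 for Ppbp, a platelet chemokine, -1.41 for Id3, -1.40 for Gpx3, -1.18 for Slc40a1 and -1.01 for the rRNA-overlapping gene Gm26917. Id3 in both Mo-MF classes, and Ppbp in all of them but the members of library 1, were under the pseudocount of 0.1, so their values depend on it too and no difference between the cultures is drawn from them. Slc40a1 and Gpx3 were lower in the members of both B-MF libraries and higher in those of both Mo-MF libraries. Gm26917 rose in members of both cultures, by 1.52 in B-MF and 2.53 in Mo-MF. Of these 10, Id3 (limma adjusted p = 0.0663) and Gm26917 (0.0540) lost the call without B-MF library 1, and Ppbp (0.180) and Gm26917 (0.331) without B-MF library 2. Without a filter on low levels, none of the 10 was called.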

How the results depend on the processing

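With each library left out, the cultures' difference in the share of high-mitochondrial cells (1.51 to 3.72 percentage points) and the members' difference in detected genes (-1013.67 to -868.333) kept their direction, and 11 to 12 mt- genes differed in makeup with 1 sign in all libraries left. The 13 mt- genes had a median difference of 0.59 in all cells and, per 10000 nuclear-encoded counts in all cells, of 0.64 (chosen after seeing the data). With 1 library left out, 12 to 13 were called with medians of 0.52 to 0.59. Members against other cells gave 2083 calls with a minimum mean of 0.5, of which 508 were lower. Higher calls were 834 per cell, and lower calls 1751 with a 25% threshold, 5509 per cell and 1323 with weighting, and with 1 library left out calls ran from 3818 to 4715. The difference between cultures of this change (187 genes) gave 568 and 94 calls with thresholds of 10% and 25%, 311 per cell and 0 without a filter (limma, 1751 at an unadjusted p under 0.05), and 95 to 295 with 1 library left out (95 without B-MF library 2, 119 without B-MF library 1, 295 without Mo-MF library 2). Within high-mitochondrial cells, the 139 calls between the cultures became 1945, 4 and 0 with thresholds of 10%, 20% and 25%, 21 and 644 with pseudocounts of 0.01 and 1, 17 and 375 with no filter and a minimum mean of 0.5, 85 per cell, and 0 to 53 with 1 library left out. The cause was not tested. Single genes turned sign in members against other cells: Blnk (-0.056) and Slc3a2 (-0.020) per cell, Cenpf (0.019) with a 25% threshold, and Egr1 (-0.25), Hsph1 (0.058) and Itgax (0.014) with weighting. Library numbers are shared by the cultures. Over genes, deviations of same-numbered libraries correlated by 0.15 in other cells and 0.03 in members. With 2 libraries per culture this cannot tell whether the numbers pair them. With a replicate block 15 genes were called within members and all 13 mt- genes after removal (median 0.55). Thin bins, the unknown original depth and 2 libraries per culture limit these values.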
